A study of Mus musculus with 41 samples.

Results

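The genes described here are 10 genes of amino acid supply and folate metabolism that are linked to the transcription factor ATF4: Atf4, Ddit3, Trib3, Chac1, Asns, Phgdh, Psat1, Shmt2, Mthfd2 and Aldh1l2. They were a named list, all 10 of which were among the 21249 genes of the count table. The list was chosen by measured values: the fitted difference of Asns, Aldh1l2 and Trib3 between recipient genotypes was known when the other genes were added. The values of the 10 genes between recipient genotypes are therefore a description and were not tested. For the 10 genes, tests are given for other comparisons, some of which share libraries with the comparison of recipient genotypes.

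Cells short of amino acids, or under other kinds of stress, phosphorylate the translation factor eIF2, which lowers protein synthesis as a whole while more ATF4 protein is made. ATF4 then switches on genes for amino acid synthesis, amino acid uptake, tRNA charging and the mitochondrial folate cycle. Much of this control is on translation of the Atf4 messenger, so the level of Atf4 RNA is not a measure of ATF4 protein.

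Gene counts came from whole endometriosis lesions of mice, in which a uterine punch of 4 mm from a donor was glued inside the abdomen of a recipient aged 12 to 16 weeks. The study varied group 2 innate lymphoid cells (ILC2s), which respond to the cytokine IL-33. From day 7 the recipients had 3 intraperitoneal injections, spread over 6 days, of IL-33 at 1 µg or of PBS. The Nmur1iCre-eGFP allele directs a Cre recombinase by the Nmur1 gene, which in lymphoid cells marks ILC2s, and with both Id2fl/fl alleles it gives the genotype called deficient here.

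Deficient mice (Nmur1iCre-eGFP Id2fl/fl) formed 5 groups. They received IL-33 with 250000 transferred ILC2s (n = 4), IL-33 with added PBS (n = 4), IL-33 with 120000 transferred ILC2s (n = 2), IL-33 alone (n = 4) or PBS alone (n = 4). In a further group, fragments of Nmur1iCre-eGFP uterus grew in deficient recipients given IL-33 (n = 4). The competent recipients, all given IL-33, were Nmur1iCre-eGFP mice holding deficient fragments (n = 4), Nmur1iCre-eGFP mice (Cre controls, n = 4), Id2fl/fl mice (floxed controls, n = 4), and C57Bl/6J wild-type mice with 120000 transferred ILC2s (n = 3) or without (n = 4). Labelled genotypes describe fragments, and recipients of fragments that were not exchanged were taken to share them. Whether replicates were separate animals is not in the labels, and the spread behind each p-value may in part be technical.

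The 41 libraries held 28884926 to 70526624 counts (median 42906356). Id2 is used by many cell types besides ILC2s. It was at 32.0 to 83.1 counts-per-million (CPM) in the 22 libraries of deficient fragments, against 28.9 to 73.4 CPM in the other 19. This split by fragment genotype does not show the deletion in whole lesions, and a split by recipient genotype was not made. Fibroblast and stroma markers took 1.30 to 5.66% of the counts of a library and epithelial markers 0.00105 to 0.135%, with Foxa2 at 0 in 6 libraries and Pax8 at 0 in 3. In 4 libraries a list of 12 liver markers took 2.39 to 8.77% of the counts, against at most 0.0670% in the other 37. These were in the deficient group given IL-33 alone (replicate 2), the Cre controls (replicate 3) and the wild-type groups with (replicate 3) and without (replicate 4) transferred ILC2s. Library names run in blocks that follow the groups in part. The deficient group given IL-33 alone interleaves with the Cre controls, and the group with 250000 ILC2s with the group given added PBS, while each other group has its own block and cannot be told apart from it.

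A short stretch of DNA read by ATF4 together with a C/EBP protein, TGATGNAA (N is any base), was looked for on both strands of RefSeq promoter windows of build GRCm38.p6, which run from 250 bases before to 50 bases after a gene's start. Windows were at hand for 9 of the 10 genes, all except Aldh1l2, and 3 of the 9 held a match, namely Asns, Trib3 and Chac1. Of all 32851 windows, 3.97% held one, as did 4.51% of the 27025 genes. Starts are those of RefSeq, and the windows of Psat1 and Mthfd2 lie inside the gene spans given below, away from both ends. The 3 windows are shown because they hold a match, which is in capitals, and the absence of one elsewhere says only that these letters are not in the window. The Asns window is chr6:7693160-7693459 on the minus strand, with the match on the coding strand at -23 to -16 relative to the start. The Trib3 window is chr2:152344011-152344310 on the minus strand, with the match on the opposite strand at 15 to 22. The Chac1 window is chr2:119350992-119351291 on the plus strand, with the match on the opposite strand at -193 to -186.
Asns: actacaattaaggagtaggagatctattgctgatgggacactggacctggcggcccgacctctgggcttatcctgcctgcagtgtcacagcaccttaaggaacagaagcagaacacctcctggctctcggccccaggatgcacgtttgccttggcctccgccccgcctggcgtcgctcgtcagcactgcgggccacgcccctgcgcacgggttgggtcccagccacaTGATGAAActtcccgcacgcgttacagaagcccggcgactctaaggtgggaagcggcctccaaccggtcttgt
Trib3: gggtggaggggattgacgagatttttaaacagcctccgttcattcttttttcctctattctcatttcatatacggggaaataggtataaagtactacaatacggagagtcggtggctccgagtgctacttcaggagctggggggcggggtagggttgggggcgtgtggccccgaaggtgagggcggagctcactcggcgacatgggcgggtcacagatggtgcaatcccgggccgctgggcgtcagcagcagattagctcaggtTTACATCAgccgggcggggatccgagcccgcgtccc
Chac1: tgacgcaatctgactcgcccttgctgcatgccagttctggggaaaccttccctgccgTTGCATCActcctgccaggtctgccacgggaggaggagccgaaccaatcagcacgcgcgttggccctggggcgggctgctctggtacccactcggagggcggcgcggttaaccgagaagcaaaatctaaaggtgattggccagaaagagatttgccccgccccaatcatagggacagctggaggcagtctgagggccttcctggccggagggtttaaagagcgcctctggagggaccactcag

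Across the exchanged and unexchanged lesions given IL-33, all 10 genes had lower fitted levels in deficient recipients than in Cre recipients, whichever genotype the fragment had. The comparison set the mean of 2 groups in deficient recipients (deficient and Cre fragments) against the mean of 2 groups in Cre recipients (Cre and deficient fragments), 8 libraries each. The median log2 fold change of the 10 genes was -1.35, against 0.01 over all 21249 genes. In edgeR's quasi-likelihood fit, with p adjusted over all genes after Benjamini and Hochberg, 9 of the 10 were past an adjusted p of 0.05 and lower, all except Chac1, as were 6.29% of all genes. Since the choice of the list used this contrast, the count describes the list only. In bulk tissue, fewer cells that hold a transcript and less of it in each cell cannot be told apart.

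Asns, on chromosome 6 (GRCm38, 7675169 to 7693254, minus strand), makes asparagine from aspartate and glutamine. Its levels in the 4 lesions of Cre fragments in deficient recipients were 9.19, 10.7, 13.5 and 10.8 CPM, and in the 4 deficient lesions 13.2, 13.3, 11.1 and 18.2 CPM, against 55.5, 63.6, 29.8 and 28.2 CPM in the Cre controls and 32.3, 68.5, 24.4 and 81.7 CPM in deficient fragments in Cre recipients. No library of a deficient recipient reached the lowest of a Cre recipient, and the fragments that were moved to the other genotype lay with the lesions of their recipient. The fitted difference was -1.95 ± 0.23 on the log2 scale (SE), a level 3.86-fold lower in deficient recipients.

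Trib3 (chromosome 2, 152337422 to 152344032, minus strand) encodes a pseudokinase that ATF4 induces and that holds ATF4 activity back. It had 2.48, 3.61, 3.41 and 2.24 CPM in Cre fragments in deficient recipients and 3.41, 3.03, 2.40 and 4.41 CPM in deficient lesions, against 15.6, 26.3, 10.6 and 8.38 CPM in Cre controls and 9.83, 21.8, 7.75 and 27.2 CPM in deficient fragments in Cre recipients. The 8 libraries of deficient recipients again lay below the 8 of Cre recipients. With -2.35 ± 0.29 on the log2 scale it had the largest fitted difference of the 10 genes.

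Atf4 itself (chromosome 15, 80255184 to 80257541, plus strand) had 117, 90.4, 93.4 and 99.1 CPM in Cre fragments in deficient recipients and 108, 90.7, 95.9 and 108 CPM in deficient lesions, against 176, 186, 139 and 136 CPM in Cre controls and 136.7, 174, 126.5 and 191 CPM in deficient fragments in Cre recipients. The libraries of the 2 recipient genotypes did not overlap, although the difference, -0.66 ± 0.10 on the log2 scale, was the smallest of the list. Replicates of a group also spread least for Atf4, with a within-group SD of 0.209 on the log2 CPM scale, against 0.450 for Asns.

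Ddit3 (chromosome 10, 127290774 to 127296288, plus strand) encodes CHOP, a transcription factor tied to cell death under prolonged stress. It ranged from 9.47 to 13.7068 CPM (median 11.001) in 8 libraries of deficient recipients and from 13.7104 to 21.8 CPM (median 17.4) in 8 of Cre recipients, so that the groups met without overlapping. The fitted difference was -0.66 ± 0.13 on the log2 scale, and its counts are uncertain because 2 overlapping gene records carry the symbol. Chac1 (chromosome 2, 119351229 to 119354381, plus strand) encodes an enzyme that breaks down glutathione. It ranged from 2.95 to 21.7 CPM (median 5.14) in deficient recipients and from 7.88 to 28.8 CPM (median 17.0) in Cre recipients, with 6 of the 8 libraries of deficient recipients below all 8 of Cre recipients. Its difference of -1.15 ± 0.48 on the log2 scale had the largest error of the list, and its within-group SD was 1.01.

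The first enzymes of serine synthesis, Phgdh and Psat1, differed by -1.64 ± 0.24 and -1.06 ± 0.20 on the log2 scale. Phgdh (chromosome 3, 98313170 to 98339990, minus strand) oxidises 3-phosphoglycerate, an intermediate of glycolysis. It ranged from 8.88 to 19.9044 CPM (median 11.8) in deficient recipients and from 19.86 to 74.7 CPM (median 32.9) in Cre recipients. Replicate 3 of the Cre fragments in deficient recipients, at 19.9044 CPM, was the only library of a deficient recipient above the lowest Cre recipient. Psat1 (chromosome 19, 15904678 to 15947337, minus strand) is the transaminase of the next step. It ranged from 14.7 to 33.8 CPM (median 21.0) in deficient recipients and from 31.3 to 64.5 CPM (median 43.7) in Cre recipients, with an overlap of 2 libraries of deficient recipients.

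Shmt2, Mthfd2 and Aldh1l2 act in the mitochondrial folate cycle, where serine gives up a carbon unit to folate that is carried on to formate or oxidised to carbon dioxide. Aldh1l2 (chromosome 10, 83487450 to 83534140, minus strand) makes that last oxidation, which yields NADPH. It had 18.8, 17.9, 11.05 and 22.8 CPM in Cre fragments in deficient recipients and 23.0, 27.3, 18.7 and 26.2 CPM in deficient lesions, against 80.0, 108.8, 64.7 and 48.3 CPM in Cre controls and 61.0, 106.1, 53.5 and 157.95 CPM in deficient fragments in Cre recipients. The lowest library of a Cre recipient was above the highest of a deficient recipient, and the fitted difference was -2.04 ± 0.24 on the log2 scale, 4.12-fold lower.

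Mthfd2 (chromosome 6, 83305691 to 83325908, minus strand) oxidises the carbon unit in mitochondria and is known for its level in dividing and tumour cells. It had 8.88, 9.56, 18.05 and 7.99 CPM in Cre fragments in deficient recipients and 12.2, 9.19, 6.78 and 14.0 CPM in deficient lesions, against 35.7, 42.2, 19.1 and 21.2 CPM in Cre controls and 26.4, 47.7, 19.0187 and 44.9 CPM in deficient fragments in Cre recipients. The groups did not overlap, and the closest library was replicate 3 of the Cre fragments in deficient recipients. Its fitted difference was -1.56 ± 0.23 on the log2 scale.

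Shmt2 (chromosome 10, 127517123 to 127522444, minus strand) takes the carbon unit from serine in mitochondria. It ranged from 25.9 to 55.8 CPM (median 31.1) in deficient recipients and from 35.5 to 130 CPM (median 57.4) in Cre recipients, and differed by -0.92 ± 0.26 on the log2 scale. The highest library of the deficient group given IL-33 alone, at 55.8 CPM, and that of the Cre controls, at 130 CPM, were the ones with liver markers. Without the 4 libraries with liver markers the difference was -0.83, and each of the 10 genes, Shmt2 among them, moved by less than its SE. All told, 6 of the 10 genes (Asns, Aldh1l2, Trib3, Atf4, Ddit3 and Mthfd2) had every library of a deficient recipient below every library of a Cre recipient, as did 0.866% of all genes. This too is the contrast on which the list was chosen.

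**Figure D1:**
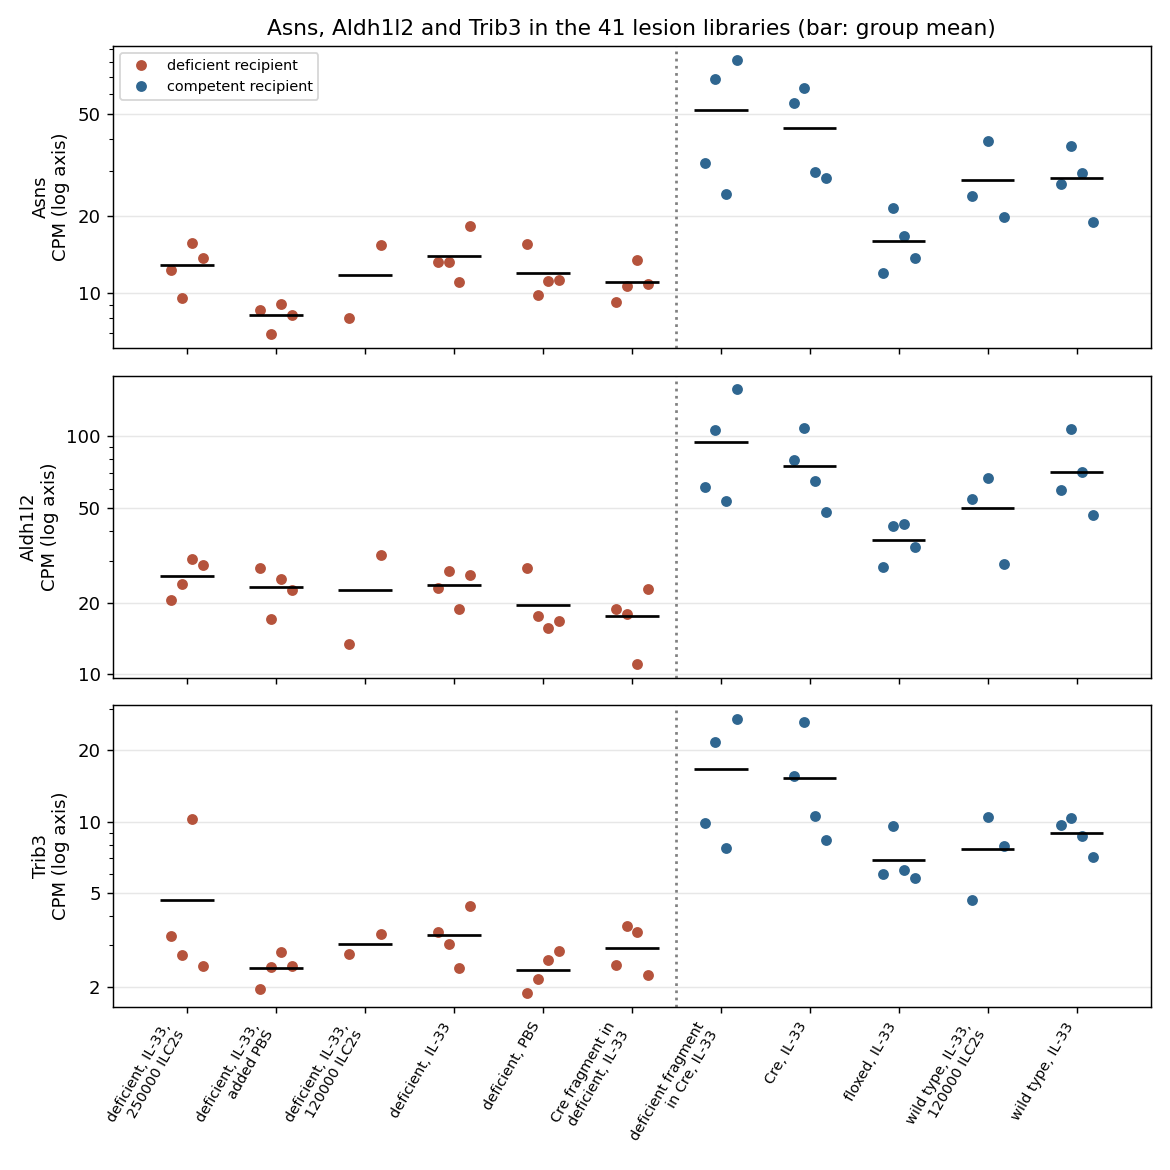
Counts-per-million (log axis) of Asns, Aldh1l2 and Trib3 in each of the 41 libraries, as points, with the group mean as a bar, for 6 groups in deficient recipients (left) and 5 in competent recipients (right). Cre fragments in deficient recipients sit at 9.19 to 13.5 CPM of Asns with the deficient groups, and deficient fragments in Cre recipients at 24.4 to 81.7 CPM with the Cre controls.

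The difference by recipient was seen within each fragment genotype. These comparisons split the libraries of the recipient contrast on which the list was chosen, so their counts are a description and no independent support. Between groups of Cre fragments (4 libraries in deficient and 4 in Cre recipients) the median log2 fold change of the 10 genes was -1.39, and 9 were past the threshold and lower, beside 1.68% of all genes. Between groups of deficient fragments it was -1.33, and 7 were past the threshold and lower, beside 2.69% of all genes, the exceptions being Ddit3, Chac1 and Shmt2. Asns differed by -2.00 ± 0.32 in Cre fragments and by -1.89 ± 0.32 in deficient fragments on the log2 scale. Aldh1l2 differed by -2.10 ± 0.33 and -1.99 ± 0.33, and Trib3 by -2.38 ± 0.40 and -2.33 ± 0.40.

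The fragment's own genotype was tested across both recipient genotypes, with 8 libraries of deficient fragments against 8 of Cre fragments. These are the libraries of the recipient contrast. The list was chosen with the outcome of that contrast known, so no test on these libraries is independent of the choice. None of the 10 genes passed, with a lowest adjusted p of 1.00, and none had an unadjusted p under 0.05. Of all genes 1 passed (0.00471%), and 834 had an unadjusted p under 0.05. The largest log2 fold changes of the list were 0.38 ± 0.23 for Aldh1l2 (95% interval -0.08 to 0.84) and 0.28 ± 0.22 for Asns (-0.17 to 0.73). These intervals bound the effect of fragment genotype but do not show that there was none. The interaction, the recipient difference in deficient fragments less that in Cre fragments, was also tested. It passed for none of the 10 genes (lowest adjusted p 0.579, for Shmt2 at 0.72 ± 0.51) and for 0.414% of all genes. Without the 4 libraries with liver markers the Shmt2 value was 0.06.

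**Figure D2:**
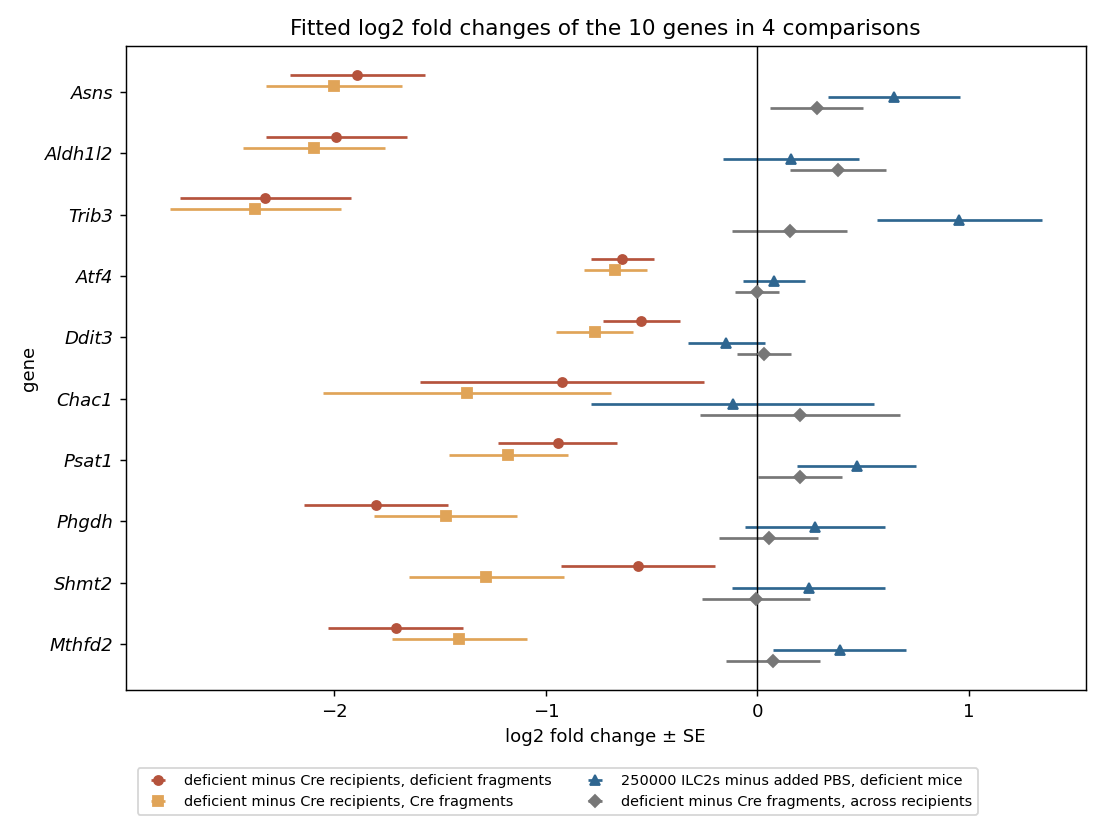
Fitted log2 fold changes (points, with SE as bars) of the 10 genes for deficient minus Cre recipients in deficient fragments and in Cre fragments, for 250000 ILC2s minus added PBS, and for deficient minus Cre fragments. The recipient values of Asns, Aldh1l2 and Trib3 lie between -2.38 and -1.89, while the fragment values of the 10 genes lie between -0.01 and 0.38.

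Over all 11 groups, the mean CPM of each of the 6 groups in deficient recipients lay below that of each of the 5 groups in competent recipients for 9 of the 10 genes, beside 4.72% of all genes. Psat1 was the exception. The groups of the recipient contrast, on which the list was chosen, are among these, so the count describes the list only. The mean of Asns was, in rising order, 8.19 ± 0.93 CPM with added PBS, 11.05 ± 1.77 in Cre fragments in deficient recipients, 11.7 ± 5.2 with 120000 ILC2s (n = 2), 11.9 ± 2.5 with PBS alone, 12.8 ± 2.6 with 250000 ILC2s and 13.9 ± 3.0 in deficient lesions given IL-33 alone (SD, n = 4 unless given). It was 16.0 ± 4.2 CPM in floxed controls, 27.6 ± 10.2 in wild-type lesions with transferred ILC2s (n = 3), 28.1 ± 7.7 in wild-type lesions, 44.3 ± 17.95 in Cre controls and 51.7 ± 27.7 in deficient fragments in Cre recipients. Only the lowest group of that order was separated from its neighbour, since every other pair of neighbours overlapped in single libraries.

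Aldh1l2 ran from 17.6 ± 4.9 CPM in Cre fragments in deficient recipients through 36.8 ± 6.8 in floxed controls to 94.7 ± 48.2 in deficient fragments in Cre recipients (SD, n = 4 each), with the other deficient groups at means of 19.5 to 25.9. Trib3 ran from 2.37 ± 0.43 CPM in deficient lesions given PBS alone through 6.90 ± 1.79 in floxed controls to 16.6 ± 9.4 in deficient fragments in Cre recipients (SD, n = 4 each). No neighbours in either order were separated. In the 16 libraries of deficient recipients without transferred ILC2s, Aldh1l2 ranged from 11.05 to 28.03 CPM (median 20.6), against 28.25 to 157.95 CPM (median 59.3) in the 19 libraries of competent recipients. Trib3 ranged from 1.88 to 4.41 CPM (median 2.54) in these deficient recipients and from 4.67 to 27.2 CPM (median 9.57) in competent recipients. The other 8 genes overlapped between these sets, and of all genes 16 (0.0753%) were lower without overlap. Both margins are narrow, so that for Aldh1l2 the highest deficient and the lowest competent library differed by less than 1% of their level. The 6 libraries of deficient recipients with transferred ILC2s were left out, while wild-type libraries with transferred ILC2s were kept. Those 6 reached 31.7 CPM of Aldh1l2 and 10.3 CPM of Trib3, so with them both genes overlapped the competent recipients. These sets hold the libraries of the recipient contrast, and the separation is a description.

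**Figure D3:**
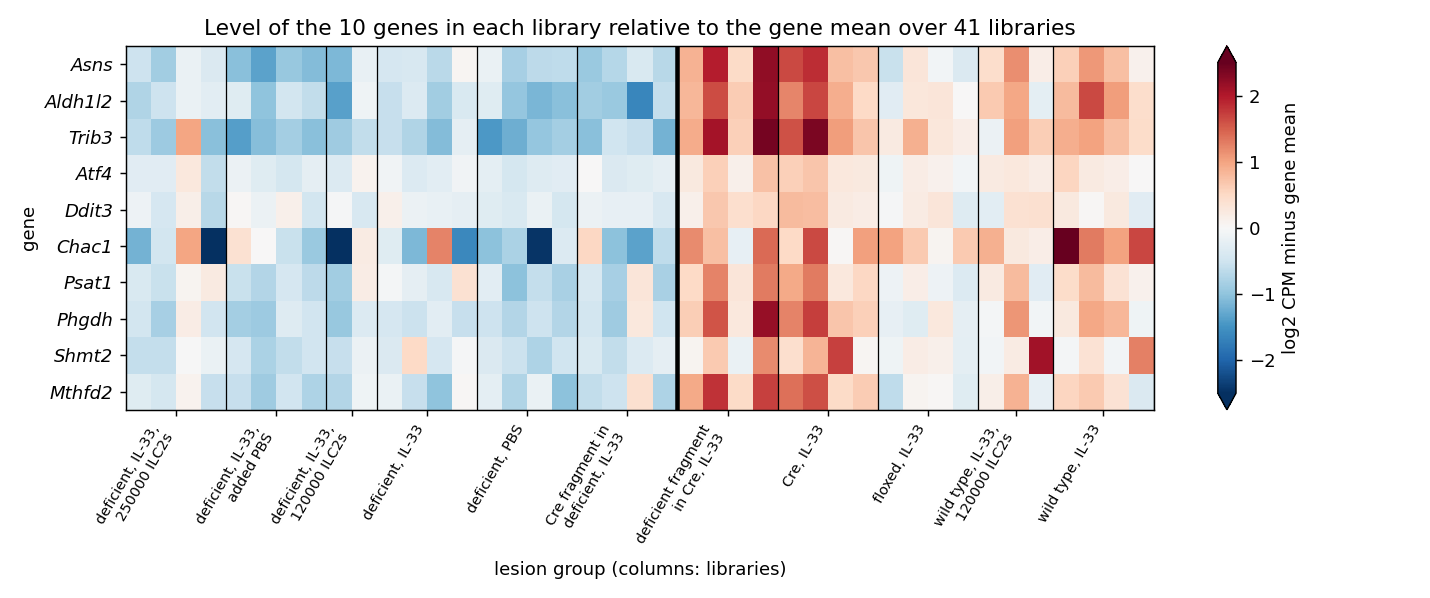
Level of each of the 10 genes (rows) in each of the 41 libraries (columns), as log2 CPM minus the gene's mean over all libraries, with the colour scale ending at 2.5 in each direction and the thick line dividing deficient recipients (left) from competent recipients (right). Most genes are below their mean on the left, floxed controls are near it, and Cre controls and deficient fragments in Cre recipients are highest. In the group with 250000 ILC2s, replicate 3 stands out with Trib3 at 10.3 CPM, and replicate 4 with Chac1 at 0.671 CPM.

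The competent genotypes were not alike. Deficient lesions given IL-33 alone against the mean of the Cre, floxed and wild-type controls had a median log2 fold change of -0.88 for the 10 genes, and 6 were past the threshold and lower, as were 4.72% of all genes. The group of deficient lesions is the one of the recipient contrast, and so this is a description as well. Aldh1l2 (-1.29 ± 0.28) and Trib3 (-1.56 ± 0.35) had all 4 deficient libraries below all 12 of these controls, as did 1.43% of all genes. The count of 6 fell to 3 without replicate 1 of the deficient lesions, to 2 without replicate 2 and to 3 without replicate 4, while leaving out each other library in turn gave 4 to 6.

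Against the floxed controls alone the gap was small. Asns had 13.2, 13.3, 11.1 and 18.2 CPM in deficient lesions, against 12.0, 21.6, 16.8 and 13.7 CPM in floxed controls, which overlap throughout. Its difference was -0.20 ± 0.31 on the log2 scale, that of Aldh1l2 -0.63 ± 0.32 and that of Trib3 -1.06 ± 0.39, and the median of the 10 genes was -0.21. None of the 10 was past the threshold, while 8.55% of all genes were, in either direction. Aldh1l2 had 23.0, 27.3, 18.7 and 26.2 CPM in deficient lesions, against 28.2493, 41.9, 42.6 and 34.4 CPM in floxed controls. Trib3 had 3.41, 3.03, 2.40 and 4.41 CPM in deficient lesions, against 5.99, 9.57, 6.28 and 5.77 CPM in floxed controls. These 2 genes were lower without overlap, as were 8.71% of all genes, and the other 8 overlapped. Against wild-type lesions the median of the 10 genes was -0.86, and 3 were past the threshold and lower, beside 3.66% of all genes.

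Floxed controls were then tested against wild-type lesions, a pair of competent groups outside the recipient contrast. None of the 10 genes passed, while 4.52% of all genes did. All 10 fitted values were negative, with a median of -0.54 beside -0.01 for all genes, although Ddit3 was above 0, at up to 0.10, in 4 of 8 fits with 1 library left out. Aldh1l2 differed by -0.95 ± 0.32 (adjusted p = 0.0764) and Asns by -0.81 ± 0.31 (adjusted p = 0.105), both with an unadjusted p under 0.05. In floxed controls Aldh1l2 had 28.2493, 41.9, 42.6 and 34.4 CPM, against 59.3, 107.4, 70.6 and 46.6 CPM in wild-type lesions, lower without overlap, as were 8.06% of all genes. DESeq2 called Aldh1l2 lower at -0.955, and edgeR did not. Other ATF4-linked genes were lower in floxed controls for 2 of 21, namely Eif4ebp1 (-1.06 ± 0.18, adjusted p = 0.00112) and Cth (-3.57 ± 0.98, adjusted p = 0.0333). Each group lies in its own block of library names, so block and genotype cannot be told apart.

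Transfer of 250000 ILC2s into deficient mice was compared with added PBS, with libraries outside the recipient contrast on which the list was chosen. None of the 10 genes passed, nor did any of the 21249 genes by edgeR (0%), of which 1849 had an unadjusted p under 0.05, while DESeq2 called 14 genes. Asns had 12.3, 9.54, 15.7 and 13.7 CPM with ILC2s, against 8.55, 6.90, 9.09 and 8.24 CPM with added PBS. All 4 libraries with ILC2s lay above all 4 with PBS, as they did for 2.70% of all genes. The group with added PBS had the lowest Asns mean of the 11 groups. The mean with 250000 ILC2s, 12.8 CPM, was below the 13.9 CPM of deficient lesions given IL-33 alone. The log2 fold change of Asns was 0.64 ± 0.31 (95% interval 0.01 to 1.28, adjusted p = 0.571). Between recipients of deficient fragments, the fitted value of Asns was -1.89 ± 0.32.

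Trib3 had 3.30, 2.73, 10.3 and 2.46 CPM with ILC2s, against 1.96, 2.43, 2.83 and 2.45 CPM with added PBS. Replicate 3 alone stood high. Its log2 fold change was 0.95 ± 0.39 (adjusted p = 0.567), and 0.23 without replicate 3 of the ILC2 group. Aldh1l2 had 20.4, 23.8, 30.5 and 28.8 CPM with ILC2s, against 28.02, 17.1, 25.1 and 22.5 CPM with added PBS, which overlap, at 0.16 ± 0.32 (95% interval -0.50 to 0.81, adjusted p = 0.897). The median of the 10 genes was 0.26, beside 0.04 for all genes. Among the other ATF4-linked genes 0 of 21 passed, and 0 of 11 amino acid transporters did, where Slc38a1 had the largest value (0.90 ± 0.38, adjusted p = 0.568).

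At 120000 cells there was no passing gene in either host. The deficient group without cells was that given IL-33 alone, which the recipient contrast also uses. In wild-type mice the 10 genes ran from -1.33 ± 0.75 for Chac1 to 0.62 ± 0.39 for Shmt2 on the log2 scale, all at an adjusted p of 0.999 or above. The Shmt2 value was -0.01 without the 4 libraries with liver markers, one of which (170 CPM) is in the ILC2 group and another (94.5 CPM) in the group without. In deficient mice, with 2 libraries after transfer, the values ran from -0.59 to 0.09, all at an adjusted p of 1.00. These values rest on single libraries: Chac1, the lowest, was at 0.22 without replicate 1 of the transfer group, at -2.61 without replicate 2 and at 0.32 without replicate 3 of the group given IL-33 alone. Aldh1l2 was at -0.08, and at 0.41 and -0.83 without replicates 1 and 2 of the transfer group. Of all genes 0% passed in either host by edgeR, with 841 and 400 genes at an unadjusted p under 0.05, and DESeq2 called 3 in wild-type and 9 in deficient mice.

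IL-33 alone was compared with PBS alone in deficient mice. The lesions given IL-33 alone are also in the recipient contrast on which the list was chosen. All 10 fitted values were positive (0.12 to 0.96, median 0.26 beside 0.02 for all genes) and none passed, with 0.00941% of all genes past the threshold. The highest, Chac1, was at 0.06 without replicate 3 of the IL-33 group, and Mthfd2 (0.13) was at -0.05 without replicate 4 of the IL-33 group and at -0.01 without replicate 4 of the PBS group. Psat1 had the lowest unadjusted p, at 0.60 ± 0.28 (adjusted p = 0.699), with 25.1, 22.2, 19.8 and 33.8 CPM after IL-33, against 21.7, 12.8, 17.2 and 14.7 CPM after PBS. Asns differed by 0.22 ± 0.31 (95% interval -0.41 to 0.85) and Aldh1l2 by 0.29 ± 0.32 (-0.36 to 0.94). No competent group received PBS alone, so the response of the 10 genes to IL-33 in competent mice was not measured. Added PBS, set against IL-33 alone in deficient mice, gave no passing gene of the 10 either, and 0.0141% of all genes. Asns was 8.55, 6.90, 9.09 and 8.24 CPM with added PBS, against 13.2, 13.3, 11.1 and 18.2 CPM with IL-33 alone, at -0.77 ± 0.31 (adjusted p = 0.216). These groups do not overlap for Asns, and 5.85% of all genes were lower with added PBS without overlap.

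Other genes of the pathway were set out by recipient genotype. This is the contrast on which the 10 genes were chosen, and these lists were drawn up with it known, so the counts past the threshold describe the lists and are no independent support. Of 21 other ATF4-linked stress genes, 11 fell and 0 rose in deficient recipients, with a median log2 fold change of -0.65, beside 6.29% of all genes lower and 5.02% higher. Eif4ebp1, which restrains translation initiation, fell by 0.85 ± 0.13 on the log2 scale. Pck2, the mitochondrial phosphoenolpyruvate carboxykinase, fell by 1.02 ± 0.17. Sesn2, which senses leucine and restrains mTORC1, fell by 1.08 ± 0.18. Nupr1, a stress-induced nuclear protein, fell by 1.199 ± 0.223.

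Of 11 amino acid transporters, 7 fell and 0 rose, with a median of -0.65. Slc7a3, a carrier of cationic amino acids, fell by 2.08 ± 0.30. Slc7a5 and Slc3a2, the 2 chains of a carrier of large neutral amino acids, fell by 1.54 ± 0.26 and 0.72 ± 0.11. Slc7a1, another cationic carrier, fell by 1.04 ± 0.19. Of 19 cytosolic tRNA synthetases, which load amino acids on tRNAs, 10 fell and 0 rose, with a smaller median of -0.32. Sars (-0.62 ± 0.09), Cars (-0.59 ± 0.09), Nars (-0.57 ± 0.10) and Yars (-0.62 ± 0.12) led the list by adjusted p.

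For the remaining pathway lists the shares over all genes are again 6.29% lower and 5.02% higher. Of 19 other serine, glycine and folate enzymes, 2 fell (Psph, the last step of serine synthesis, by 0.62 ± 0.13, and the mitochondrial Mthfd1l by 0.74 ± 0.19), and 1 rose (the DNA synthesis enzyme Tyms, 0.67 ± 0.17), with a median of -0.01. Of 9 eIF2 kinases and phosphatase regulators, Ppp1r15b (-0.37 ± 0.09) and Eif2ak4 (-0.20 ± 0.06), which encodes the amino acid sensor GCN2, fell, and Eif2ak2 (0.69 ± 0.16), which encodes the RNA sensor PKR, rose. Of 19 genes of the ATF6 and XBP1 response to unfolded protein in the endoplasmic reticulum, 1 fell, Derl3 (-1.87 ± 0.61), which is also a plasma cell marker, and 1 of 19 is near the share of all genes. Of 7 mitochondrial chaperones and proteases, 1 fell, Hspa9 (-0.48 ± 0.14). Of 12 enzymes of arginine, glutamine and asparagine, 1 fell, Arg1 (-1.98 ± 0.48), also a product of macrophages in type 2 responses.

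**Figure D4:**
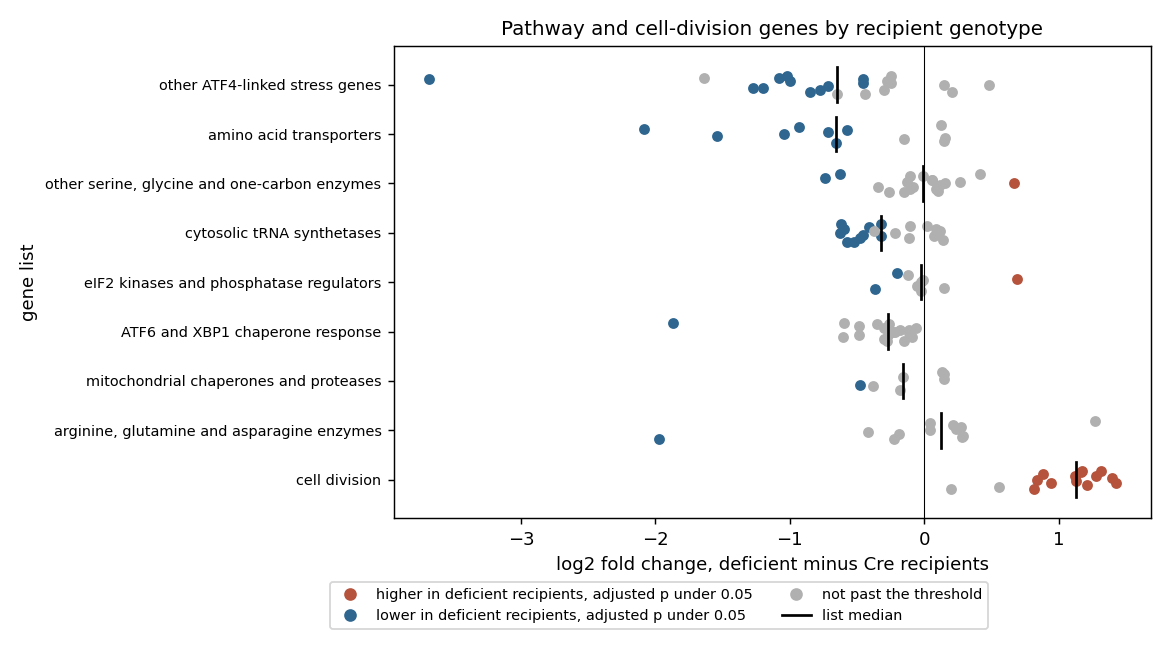
Fitted log2 fold change of each gene (points) in 8 pathway lists and in cell-division genes, deficient minus Cre recipients, with list medians as black bars and colours for genes higher or lower at an adjusted p under 0.05. The ATF4-linked, transporter and tRNA synthetase lists lie to the left with medians of -0.65, -0.65 and -0.32, and the cell-division list lies to the right with 1.13.

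Genes of other processes moved with the recipient too, beside 6.29% of all genes lower and 5.02% higher. These lists were also drawn up with earlier results of these data known, so their counts are a description and no independent support. Of 15 cell-division genes, 13 rose and 0 fell, with a median of 1.13, led by Bub1 (1.43 ± 0.26), Ccnb1 (1.40 ± 0.26), Ccna2 (1.31 ± 0.25) and Cdk1 (1.17 ± 0.22). They took 0.0342 to 0.101% of the counts in deficient recipients and 0.0244 to 0.0373% in Cre recipients. All 6 type 2 macrophage products fell, among them Ccl17 (-3.57 ± 0.44), Ccl24 (-2.52 ± 0.35), Chil3 (-5.25 ± 0.76) and Retnla (-3.52 ± 0.59). They took 0.0517 to 0.109% of the counts in deficient recipients and 0.233 to 0.993% in Cre recipients, and none was at 0 in any of the 16 libraries. Of 7 macrophage markers, Fcgr1 rose (0.91 ± 0.26) and Mertk fell (-0.53 ± 0.16), and the list took 0.179 to 0.389% of the counts in deficient recipients and 0.185 to 0.398% in Cre recipients.

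Of 6 adipocyte markers, Lep (6.28 ± 1.22) and Adipoq (2.81 ± 0.88) rose, and the list took 0.00217 to 0.0668% of the counts in deficient recipients and 0.00244 to 0.0220% in Cre recipients, with Lep at 0 in 2 libraries of Cre recipients. Of 6 plasma cell markers 1 fell, Derl3, with 0.0120 to 0.0305% in deficient recipients and 0.0185 to 0.0440% in Cre recipients. No marker of fibroblasts and stroma, epithelium, smooth muscle, skeletal muscle, liver or pancreas passed in either direction. For all these marker lists the shares over all genes are again 6.29% lower and 5.02% higher, and the counts describe the lists only. The part of cell division, macrophages and adipocytes in the differences of the 10 genes was not tested.

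In deficient lesions against the mean of the Cre, floxed and wild-type controls, genes of the ATF4-linked, transporter and tRNA synthetase lists passed in both directions, beside 4.72% of all genes lower and 6.24% higher. Of the 21 other ATF4-linked genes, Eif4ebp1 (-0.84 ± 0.16), Pck2 (-0.71 ± 0.20) and Ppp1r15a (-0.47 ± 0.13) fell and Stc2 (1.23 ± 0.40) rose. Of the 11 transporters, Slc7a3 fell (-1.50 ± 0.37) and Slc38a2 rose (0.29 ± 0.08). Of the 19 tRNA synthetases, Sars fell (-0.45 ± 0.11) and Farsb rose (0.28 ± 0.08). All 15 cell-division genes rose, as did 6.24% of all genes, with a median of 1.28, while the median of the 21 ATF4-linked genes was -0.23 and that of the tRNA synthetases -0.06. The difference between the 2 contrasts was not tested, and they share the deficient lesions and the Cre controls.

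Over the 41 libraries, the levels of the 10 genes went together to differing degrees. With Asns, Pearson's r of log2 CPM was 0.945 for Mthfd2, 0.938 for Phgdh, 0.932 for Psat1, 0.921 for Aldh1l2 and 0.918 for Trib3, and lowest for Chac1 (0.519) and Shmt2 (0.655). These values hold the group differences. After group means were taken away, r with Asns was 0.868 for Psat1, 0.864 for Mthfd2, 0.819 for Phgdh, 0.809 for Aldh1l2, 0.733 for Trib3 and 0.634 for Atf4, but 0.139 for Shmt2 and 0.085 for Chac1. Outside the list, the genes most like Asns over the 41 libraries were Slc7a5 (0.956), Gm43890 (0.901), Sars (0.898), Lars (0.892) and Pck2 (0.884). Those most like Aldh1l2 were Loxl3 (0.902), Slc7a5 (0.886), Trim66 (0.879), Slc7a3 (0.870) and Pck2 (0.856). The points share library depth and group, and the values are a description.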

How the data were processed

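Whole-lesion RNA was counted in 41 libraries. The raw counts per gene, for 21249 genes, were deposited by the authors. Per the submitters' processing notes, Trimmomatic, STAR, HTSeq, edgeR and limma were used with GRCm38, and the annotation and strand setting are not given in the sources used here, so overlapping and antisense genes cannot be separated. The lowest gene total was 411 counts, so low genes had been left out before deposit. Totals of 28884926 to 70526624 counts set the counting error.

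Groups came from the sample titles. One model with a mean for each of the 11 groups was fitted to every library (edgeR 4.0.16, R 4.3.3, TMM). Contrasts were tested by its robust two-sided quasi-likelihood F-test, with p adjusted over all genes after Benjamini and Hochberg and a threshold of 0.05. An SE is the absolute log2 fold change over the square root of F. CPM values are TMM-scaled, and log2 CPM uses a prior count of 2. Genes were placed with GENCODE M21 on GRCm38, and promoter sequences are RefSeq's (GRCm38.p6). The code was tested on simulated counts.

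The 10 genes and all lists were chosen with earlier results of these data known. All 10 are named. From each other list, up to 4 passing genes with the lowest adjusted p are named where the list is described, or, with none passing, the gene with the largest absolute change, and the 5 genes likest Asns and Aldh1l2. All 58 within-group pairs of libraries differed beyond counting noise (chi-square over its degrees of freedom 21.2 to 1358). Alternatives were relative log expression scaling, a CPM filter, a replicate block, leaving out the libraries with liver markers or each replicate, fitting only the groups compared, limma 3.58.1 voom and DESeq2 1.42.0.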

Additional observations from a re-analysis of the deposited data

Results flagged for a closer look

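In sets of 4 replicates, 1 library was far from the other 3 for 5 of the 90 sets examined over the 10 genes, where chance alone flags about 1 in 20 sets. Aldh1l2 was at 28.03 CPM in replicate 1 of the deficient lesions given PBS alone, with the other 3 at 15.61 to 17.5 CPM. Trib3 was at 9.566 CPM in replicate 2 of the floxed controls, with the others at 5.766 to 6.278 CPM, and at 10.27 CPM in replicate 3 of the deficient lesions with 250000 ILC2s, with the others at 2.461 to 3.303 CPM. Phgdh was at 19.86 CPM in replicate 3 of the floxed controls, with the others at 13.3 to 14.26 CPM. Mthfd2 was at 18.05 CPM in replicate 3 of the Cre fragments in deficient recipients, with the others at 7.993 to 9.557 CPM.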

How the results depend on the processing

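No value changed direction together with a call in any alternative. The fitted values of the 10 genes in the contrasts given as a description (460 recomputed values) and the medians of the 10 genes (179) moved by less than the spread between replicates. Of 1330 recomputed tests of the 10 genes, 1329 stayed on the same side of the threshold, all past none. The exception was Aldh1l2 in floxed against wild-type lesions, so that 1 of the 10 genes passed by DESeq2 and 0 in the main fit. The sign changed in 123 of the 1330 tested values, none with a call, and in 7 of the 179 medians. For deficient lesions against 3 competent genotypes, 6 of the 10 genes passed, and 2 to 6 with each replicate left out. By recipient genotype, the 10 called tRNA synthetases became 6 with only the groups compared, and the 2 called folate enzymes became 1. The 1 called gene of the ATF6 and XBP1 list became 0 with the replicate block, 0 with limma voom, 3 with only the groups compared, 4 without the libraries with liver markers and 0 to 1 with each replicate left out. Counts over all genes moved further. The interaction count of 88 became 5 with the replicate block, 1 without liver-marker libraries, 0 with only the groups compared, 1 with voom, 342 with DESeq2 and 3 to 264 with each replicate left out. Added PBS went to 14 (CPM filter), 163 (no liver-marker libraries), 0 (groups compared), 768 (DESeq2) and 0 to 423 (each replicate left out), beside 3. Floxed against wild type gave 266 (groups compared), 1835 (DESeq2) and 289 to 1179 (each replicate left out), beside 960. Fragment genotype gave 0 (no liver-marker libraries, groups compared, voom), 13 (DESeq2) and 0 to 7 (each replicate left out), beside 1. IL-33 gave 0 (no liver-marker libraries, groups compared), 1 (voom), 18 (DESeq2) and 0 to 4 (each replicate left out), beside 2. The ILC2 transfers gave 14, 3 and 9 with DESeq2 for 250000 cells, 120000 in wild-type and 120000 in deficient mice, beside 0 each, and the 120000-cell transfers gave up to 2 and up to 1 with each replicate left out. Deficient against competent gave 698 to 2462 with each replicate left out, beside 2329. Same-numbered replicates deviated together in some pairs and in opposite directions in others (r from -0.745 to 0.692 over 73 pairs, 23 above 0.1). Replicates with different numbers were not compared as a reference. The numbers were not taken as pairs in the main fit. The causes were not tested. Depth limits Chac1 and Trib3 most, whose lowest libraries held 0.671 and 1.88 CPM.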
